A study of Mus musculus with 2 samples.

Results

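Potassium and calcium channel subunits were described in cultured perivascular cells (PCs) of the mouse aorta. The members were the 118 genes whose symbols follow the naming of potassium channel subunits (Kcn followed by letters and a number) or of the alpha1, alpha2delta, beta and gamma subunits of voltage-gated calcium channels (Cacna1, Cacna2d, Cacnb and Cacng), of 20211 gene symbols in all. Of these, 92 belonged to potassium channels and 26 to calcium channels. RNA was sequenced from 1 wild-type (WT) library and 1 Kai1 knockout (Kai1-/-) library, both from primary PCs of mice on a C57BL/6 background, grown in DMEM with serum and with no other treatment given in the labels. Kai1 is the gene Cd82, which encodes a tetraspanin of the cell membrane. The study used adult mice of either sex. The sources used here do not give the age or sex of the mice behind each culture, how many were pooled, or which part of Cd82 was deleted. With 1 library per genotype there were no replicates, so no test between genotypes was possible and every interval below covers counting error only.

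Potassium channels let potassium leave the cell and hold the membrane at a negative voltage, which keeps voltage-gated calcium channels shut. Calcium channels open on depolarization and let in the calcium that drives contraction and calcium-dependent transcription. In the vessel wall the best known members are the L-type pore Cacna1c, the large-conductance calcium-activated (BK) pore Kcnma1 with its beta1 subunit Kcnmb1, the ATP-sensitive pore Kcnj8, and voltage-gated (Kv) and inward rectifier (Kir) channels. Pore-forming subunits carry the ions, and auxiliary subunits set where the pore is placed and when it opens.

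The pore-forming potassium channel members share a short stretch of coding sequence that their names do not use. A potassium pore selects its ion with a loop whose centre is glycine, tyrosine or phenylalanine, and glycine. In the coding sequences of GENCODE M1, read in frame on the coding strand only, the codons GGNTANGGN (glycine, tyrosine, glycine) were found in 60 of 76 pore-class potassium members (78.9%), against 5.92% of 21637 coding genes. With GGNTTNGGN, whose middle codon is phenylalanine or leucine, 74 of the 76 members held at least 1 of the short forms. Among all 21637 coding genes, 3579 did. The exceptions among the members were Kcnh8 and Kcnma1 in the annotated sequences used. In the K2P class, whose subunits carry a pair of pore loops each, 11 of 14 members held at least 2 matches. At least 2 matches were held by 675 of the 21637 coding genes. The potassium auxiliary subunits held neither short form in 15 of 15 members. No calcium channel member held GGNTANGGN (0 of 25), and 9 of 10 alpha1 subunits held GGNTTNGGN, which 12.1% of coding genes also held. The windows of the 5 pore-forming potassium members that either had a mean level above the filter used below or differed most between the libraries are shown here, because these are the pores the results turn on. Capitals mark the matched codons, each with 18 bases on either side, from NCBI37 (mm9).
Kcnn4: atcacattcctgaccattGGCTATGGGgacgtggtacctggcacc
Kcnd1: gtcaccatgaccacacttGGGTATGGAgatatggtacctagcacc
Kcnj4: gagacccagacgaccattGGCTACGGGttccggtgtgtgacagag
Kcnj15: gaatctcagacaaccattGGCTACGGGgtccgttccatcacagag
Kcnj8: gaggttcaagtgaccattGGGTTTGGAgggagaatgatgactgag
These lie in coding exons at chr7:25164205-25164249 (plus strand, exon 4 of 9), chrX:7402070-7408322 (plus strand, from exon 1 across the first intron into exon 2), chr15:79315779-79315823 (minus strand, exon 2 of 2), chr16:95517575-95517619 (plus strand, exon 4 of 4) and chr6:142514950-142514994 (minus strand, exon 3 of 3), in the order printed. The calcium-activated pore Kcnn4 and the Kv pore Kcnd1 shared 31 of 45 bases, and the inward rectifiers Kcnj4 and Kcnj15 shared 35. Kcnj8 shared 25 of 45 bases with each of the other inward rectifiers and 16 with Kcnn4. Kcnj8 is the window in which the middle codon of the capitals is TTT in place of TAT or TAC.

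Expression was given in RPKM, reads per kilobase of transcript scaled to the number of mapped reads, which allows levels to be compared between genes per length. An RPKM of 0 was listed in both libraries for 53 of 118 members (44.9%), against 26.8% of all genes. A mean RPKM of 1 or more over both libraries was reached by 9 members (7.63%), against 49.8% of all genes, and the other 56 members lay above 0 with a mean below 1. Of those, 5 had values worth less than 0.5 reads in either library. No member of the Kv pore-forming class (30 members), the silent Kv class, whose subunits form no channel alone (10 members), the K2P class (14 members) or the alpha2delta class (4 members) reached a mean RPKM of 1. The 4 calcium channel beta subunits were the only class in which no member was listed at 0 in both libraries.

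**Figure D1:**
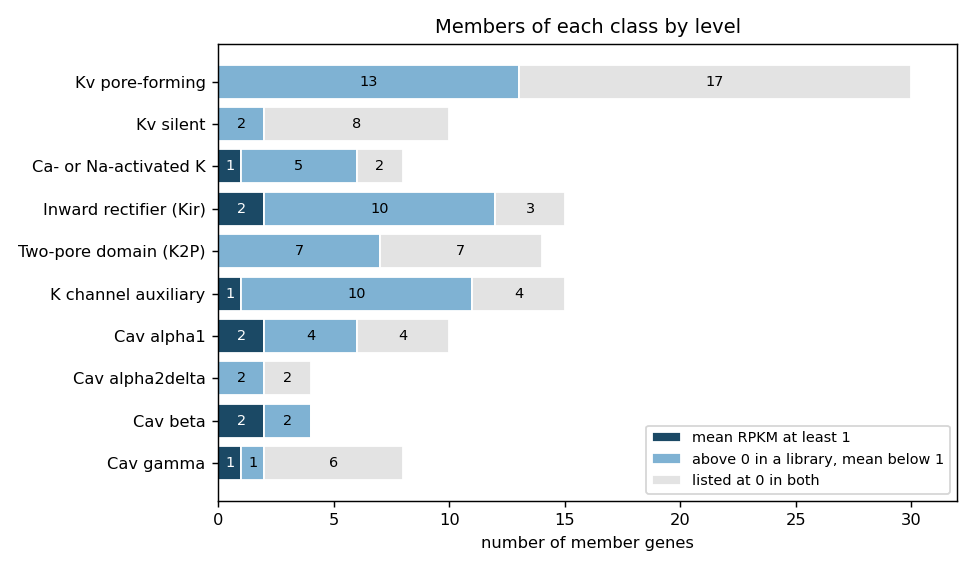
Bars give the number of member genes in each class (x axis), split into those with a mean RPKM of 1 or more, those above 0 in at least 1 library with a mean below 1, and those listed at 0 in both libraries. The 9 members with a mean RPKM of 1 or more fall into 6 classes, and 17 of the 30 Kv pore-forming members were listed at 0 in both.

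Sequencing depth, estimated from the single-read steps on which low RPKM values lay, was 29500000 reads for WT and 26700000 for Kai1-/- PCs. Of 19 member values of about 1 to 10 reads in genes with 1 annotated transcript, 18 lay within 0.15 of a whole read. Members were not left out of the fit that set the depth, so this is not an independent check of it. The targeted gene Cd82 had an RPKM of 12.8 in WT and 2.62 in Kai1-/- PCs. The smooth muscle markers Acta2 (3823 and 2580), Tagln (633 and 307) and Cnn1 (120 and 49.2) and the mural markers Pdgfrb (44.7 and 31.6) and Cspg4 (15.4 and 8.27) were present in both libraries, while the mural marker Rgs5 was near 0 (0.063 and 0.233). Smtn (35.6 and 42.5) was the only smooth muscle marker of the list that was higher in Kai1-/-. Summed RPKM was 4633 in WT and 2986 in Kai1-/- for the 7 smooth muscle markers, mostly from Acta2, and 4 of the 6 markers that averaged at least 1 RPKM were more than 2-fold lower. It was 1821 and 960 for the 7 mural and stromal markers, 0.994 and 0 for the 7 endothelial markers, 13.7 and 3.25 for the 6 macrophage markers, and 14.4 and 3.38 for the 5 Schwann cell markers. For 7 neuronal markers it was 46.9 and 70.8, mostly from Tubb3, while Stmn2 had 3.41 in WT and was listed at 0 in Kai1-/-, and the defining markers Snap25, Syt1 and Rbfox3 were at or near 0 in both. It was 72.6 and 137 for 5 cardiac muscle markers, mostly from Tnnt2 (62.6 and 132), while Myl7 (6.28 and 2.8) and Tnni3 (3.8 and 2.47) were lower in Kai1-/- and Myh6 was listed at 0 in both. It was 16.9 and 2.81 for 5 skeletal muscle markers. The Y-linked genes Ddx3y (6.56), Eif2s3y (3.17), Kdm5d (0.941) and Uty (0.479) were above 0 in WT and all 4 were listed at 0 in Kai1-/- PCs, so the sex of the source mice cannot be told apart from genotype in any difference below. The part of the marker differences in the channel values was not tested, and in bulk RNA fewer cells of a type and less RNA per cell cannot be told apart.

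The difference between the genotypes was described as the log2 ratio of Kai1-/- to WT with 0.1 RPKM added on both sides, so that differences of genes near 0 come out smaller than they are. Of the 9 members with a mean RPKM of 1 or more, 1 was more than 2-fold lower in the Kai1-/- library (background 7.81% of 10068 genes) and 0 were more than 2-fold higher (background 7.98%). These counts are too small to set the members apart from the other genes. The median log2 ratio was -0.31 over the 9 members, -0.60 over the 4 potassium channel members and 0.08 over the 5 calcium channel members, beside 0.08 over all genes at this level. Scaling both libraries to Gapdh moved the median of all genes from 0.08 to -0.41 and that of the 9 members to -0.78, and equal upper quartiles moved them to -0.19 and -0.57, so ratios near 0 have no direction of their own. The median of the calcium channel members was -0.41 and -0.19 under these scalings, below 0 where the deposited values gave 0.08. Over all genes at this level, split into 5 equal groups by transcript length, the median fell from 0.25 (shortest) to -0.04 (longest). With this trend removed the median of the 9 members was -0.20, beside 0.08 for all genes. With 1 RPKM added in place of 0.1 it was -0.22, beside 0.07. Gapdh itself had an RPKM of 4238 in WT and 5997 in Kai1-/-.

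**Figure D2:**
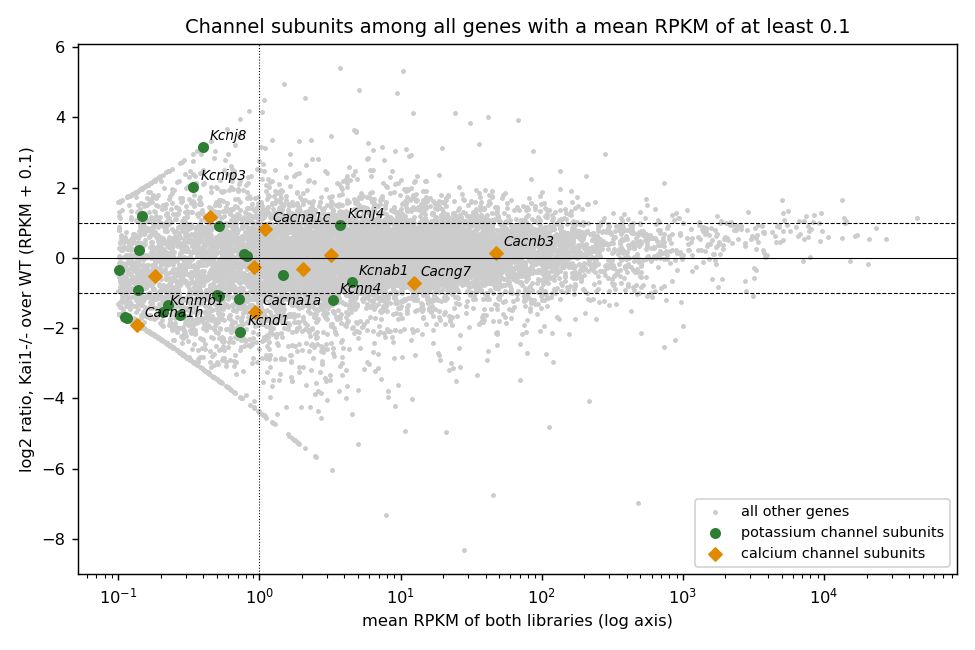
Each point is a gene with a mean RPKM of 0.1 or more, placed by its mean RPKM over both libraries (x axis, log scale) and its log2 ratio of Kai1-/- over WT after adding 0.1 RPKM (y axis). Green circles are potassium and orange diamonds calcium channel subunits, dashed lines mark a 2-fold difference and the dotted line a mean RPKM of 1. Among the channel subunits to the right of the dotted line, only Kcnn4, at -1.19, lies beyond a dashed line.

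Among the pores for calcium, 2 of 10 alpha1 subunits had a mean RPKM of 1 or more. Cacna1c, the L-type pore Cav1.2, lies at chr6:118542314-119146249 (NCBI37, minus strand). It had an RPKM of 0.769 in WT and 1.44 in Kai1-/- PCs, about 168 and 283 reads, and was 1.87-fold higher in Kai1-/- (95% counting interval 1.53 to 2.27). Its log2 ratio stayed above 0 in each scaling tried, from 0.36 when scaled to Gapdh to 0.93 with the trend on transcript length removed. Cacna1g, the T-type pore Cav3.1, at chr11:94269705-94335414, had an RPKM of 2.27 in WT and 1.81 in Kai1-/-. That is 1.25-fold lower in Kai1-/- (1.1 to 1.43), a difference of less than 2-fold. In WT PCs the T-type pore thus stood above the L-type pore, and their counting intervals did not overlap in either library. Cacna1h, the T-type pore Cav3.2, had an RPKM of 0.273 in WT, about 65 reads, and was listed at 0 in Kai1-/- PCs. Its log2 ratio of -1.90 was -0.35 with 1 RPKM added. Of its exon bases, 1.61% are shared with Tpsg1 on the opposite strand, whose RPKM was 0.299 and 0.111. Cacna1a, the P/Q-type pore Cav2.1, was chosen for mention after its values were seen, since its mean RPKM of 0.93 lay just below 1. It had an RPKM of 1.44 in WT and 0.424 in Kai1-/- PCs, about 328 and 87 reads, and was 3.38-fold lower in Kai1-/- (2.68 to 4.37). The alpha1 subunits Cacna1d, Cacna1e, Cacna1f and Cacna1s were listed at 0 in both libraries.

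The auxiliary calcium channel subunits included the highest levels of all members. Cacnb3, a cytoplasmic beta subunit that brings the alpha1 pore to the membrane, lies at chr15:98462651-98474961. It had an RPKM of 45.7 in WT and 49.7 in Kai1-/- PCs, which was 48.5% and 58.4% of the summed RPKM of all 118 members. The libraries differed 1.09-fold (1.04 to 1.14), and the log2 ratio of 0.12 turned to -0.38 when scaled to Gapdh and to -0.15 with equal upper quartiles. Cacnb1, another beta subunit, had an RPKM of 3.15 in WT and 3.33 in Kai1-/- PCs, and the interval of its ratio, 0.896 to 1.25, spanned 1. Its log2 ratio of 0.08 was likewise below 0 under both scalings, at -0.41 and -0.19. Cacnb2, the beta subunit best known from heart and vessel, had an RPKM of 0.103 in WT, about 11 reads, and was listed at 0 in Kai1-/-. Cacna2d1, the extracellular alpha2delta subunit that binds gabapentin, had an RPKM of 1.01 in WT and 0.831 in Kai1-/-, with an interval of the ratio from 0.665 to 1.01. Cacng7, a gamma subunit known for regulating AMPA-type glutamate receptors rather than calcium channels, lies at chr7:3333055-3367810. Its RPKM was 15.4 in WT and 9.33 in Kai1-/- PCs, about 914 and 501 reads, and it was 1.65-fold lower in Kai1-/- (1.48 to 1.84). Scaled to Gapdh, its log2 ratio of -0.71 became -1.21, past 2-fold. Its neighbours Cacng8 and Cacng6, in the same stretch of chromosome 7 up to 3435658, stood far below it: Cacng8 had an RPKM of 0.236 and 0.654, about 3 and 8 reads, and Cacng6 was listed at 0 in both libraries.

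Among calcium-activated potassium channels, Kcnn4 was the member with a mean RPKM of 1 or more. It encodes the intermediate-conductance channel KCa3.1, which calmodulin opens and which is known from proliferating smooth muscle cells. Kcnn4 lies at chr7:25155282-25170228 and had an RPKM of 4.63 in WT and 1.97 in Kai1-/- PCs, about 251 and 96 reads. It was 2.35-fold lower in Kai1-/- (1.86 to 3.02), a log2 ratio of -1.19. With 1 RPKM added in place of 0.1 the ratio was -0.92, short of 2-fold, and over the scalings and the removal of the length trend it lay between -1.67 and -1.25. The BK pore Kcnma1 had an RPKM of 0.122 in WT and 0.161 in Kai1-/- PCs, about 16 and 19 reads, which is no difference that this depth could show. Its smooth muscle partner Kcnmb1 had an RPKM of 0.355 and 0.0563, about 42 and 6 reads, and was 6.32-fold lower in Kai1-/- (2.68 to 18.2). Its log2 ratio of -1.54 was -0.36 with 1 RPKM added. Of the smooth muscle markers, Myh11 and Des also had low levels, with an RPKM of 2.96 and 1.23 in WT and 0.346 and 0.25 in Kai1-/-.

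Among inward rectifiers, Kcnj4 and Kcnj15 had a mean RPKM of 1 or more. Kcnj4, which encodes the strong rectifier Kir2.3, lies at chr15:79314148-79335671. It had an RPKM of 2.54 in WT and 4.93 in Kai1-/- PCs, about 146 and 256 reads, and was 1.94-fold higher in Kai1-/- (1.58 to 2.39). Its log2 ratio of 0.93 was 0.44 when scaled to Gapdh. Kcnj15, which encodes Kir4.2, lies at chr16:95479165-95521867 and had an RPKM of 1.74 and 1.21, 1.44-fold lower in Kai1-/- (1.19 to 1.75). Kcnj8, which encodes Kir6.1, the pore of the vascular ATP-sensitive channel, was listed at 0 in WT and had an RPKM of 0.791 in Kai1-/- PCs, about 42 reads. It lies at chr6:142513459-142519876. Its partner, the sulfonylurea receptor Abcc9, stood at 0.0411 in WT and 0.0303 in Kai1-/- PCs, about 9 and 6 reads. Kcnj2, which encodes the main vascular rectifier Kir2.1, had an RPKM of 0.00643 in WT, about 1 read, and 0 in Kai1-/-, and Kcnj11 (Kir6.2) was listed at 0 in both.

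The voltage-gated potassium pores were all at low levels. Kcnd1, which encodes the rapidly inactivating channel Kv4.1, lies at chrX:7399415-7415406 and was the highest of the class by mean level. It had an RPKM of 1.25 in WT and 0.213 in Kai1-/- PCs, about 188 and 29 reads. That is 5.86-fold lower in Kai1-/- (3.95 to 8.99), a log2 ratio of -2.11, which was -0.89 with 1 RPKM added. Kcnip3, a calcium-binding partner of Kv4 channels that also acts as a transcriptional repressor, had an RPKM of 0.0743 in WT and 0.606 in Kai1-/- PCs, about 6 and 41 reads. It was 8.16-fold higher in Kai1-/- (3.19 to 21.8), with a log2 ratio of 2.02 that was 0.58 with 1 RPKM added. The Kv4 pore and this Kv4 partner thus stood on opposite sides of 0. Kcna5 (Kv1.5), a Kv pore known from arterial muscle, had an RPKM of 0.0241 in WT and 0.0534 in Kai1-/-, about 2 and 4 reads. Kcnq5 had an RPKM of 0.0552 in WT, about 11 reads, and 0 in Kai1-/-, and Kcnq1 was listed at 0 in both libraries. The acid-sensitive background pore Kcnk3 of the K2P class had an RPKM of 0.00935 in WT, about 1 read, and was listed at 0 in Kai1-/-.

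Kcnab1 was the auxiliary potassium channel subunit with a mean RPKM of 1 or more. It encodes a cytoplasmic beta subunit that speeds the inactivation of Kv1 channels, and lies at chr3:64913306-65182145. Its RPKM was 5.59 in WT and 3.4 in Kai1-/- PCs, about 690 and 379 reads, and it was 1.64-fold lower in Kai1-/- (1.45 to 1.87). Scaled to Gapdh its log2 ratio went from -0.70 to -1.18. The Kv1 pores that it binds were near 0, with the highest, Kcna4, at an RPKM of 0.0509 in WT and 0.242 in Kai1-/- PCs.

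**Figure D3:**
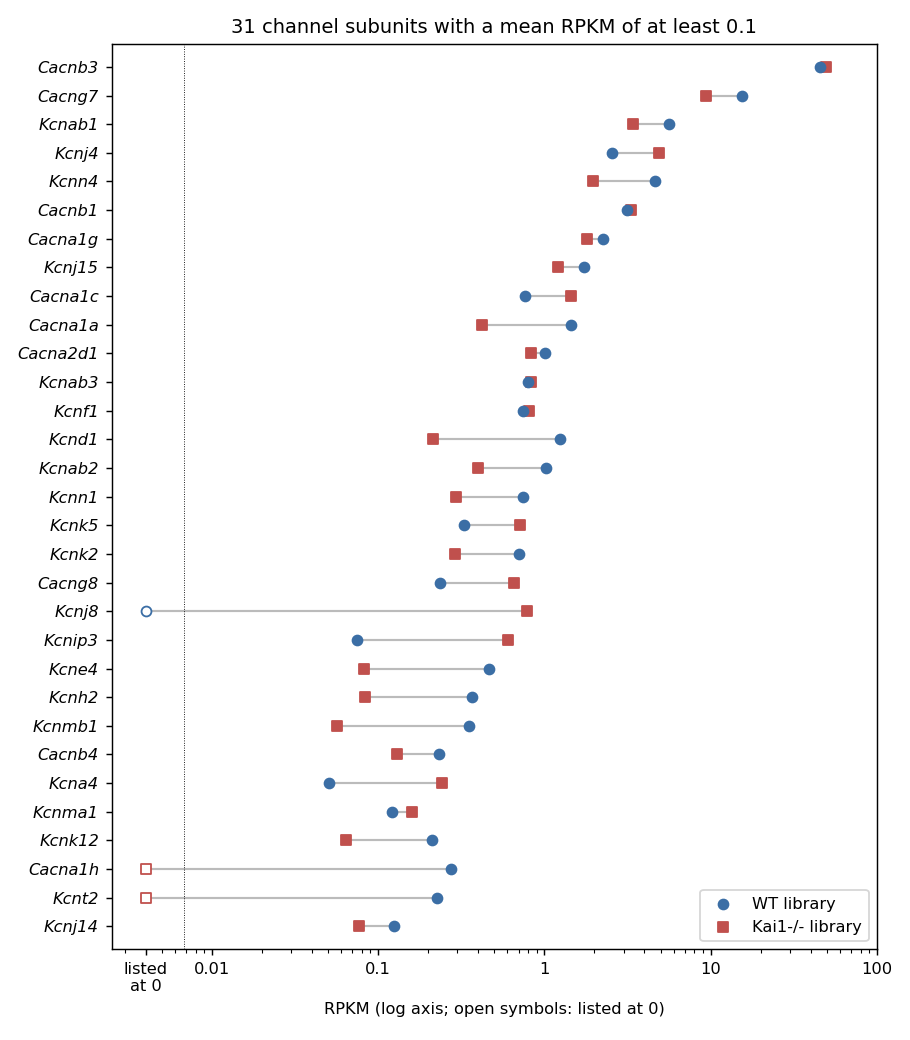
RPKM (x axis, log scale) of 31 of the 32 members with a mean RPKM of 0.1 or more, in the WT library (blue circles) and the Kai1-/- library (red squares), with a line joining both values of a gene. Open symbols at the left edge stand for a listed value of 0, as for Kcnj8 in WT and Cacna1h in Kai1-/-, and Cacnb3, at 45.7 and 49.7, is the highest member in both libraries.

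The 9 members with a mean RPKM of 1 or more over both libraries stood in a different order in each. Among these 9, the order in WT PCs ran Cacnb3, Cacng7, Kcnab1, Kcnn4, Cacnb1, Kcnj4, Cacna1g, Kcnj15 and Cacna1c, and Cacna1a, Kcnd1, Kcnab2, Cacna2d1 and Kcnab3 stood above Cacna1c in WT. The counting intervals overlapped for the neighbours Kcnab1 (5.18 to 6.02) and Kcnn4 (4.07 to 5.24), for Cacnb1 (2.8 to 3.53) and Kcnj4 (2.15 to 2.99), and for Kcnj4 and Cacna1g (2.08 to 2.47). Overlap of separate intervals is not a test of a difference, and the order within these pairs was not tested. In Kai1-/- PCs Kcnj4 (4.34 to 5.57) had rank 3 in place of Kcnab1 (3.06 to 3.76), and Kcnn4 (1.59 to 2.4) had rank 6, with an interval that overlapped that of Cacna1g (1.64 to 2). There the intervals of Kcnab1 and Cacnb1 (2.95 to 3.74) also overlapped, as did those of Cacna1c (1.27 to 1.61) and Kcnj15 (1.04 to 1.4).

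Below the filter, 12 members had a mean RPKM from 0.3 to below 1, a band chosen after the data were seen. Of these, 5 were more than 2-fold lower in the Kai1-/- library (background 26.6% of 1558 genes) and 3 were more than 2-fold higher (background 11.7%). Their median log2 ratio was -0.10, beside -0.17 for all genes of this band. Counted together with the 9 members above it, 6 of 21 were lower (background 10.3% of 11626 genes) and 3 were higher (background 8.47%). That pooled background is not matched for level, since 12 of the 21 members but only 1558 of the 11626 genes lay in the band. The lower members in the band were Cacna1a, Kcnd1, Kcnab2, Kcnn1 and Kcnk2. Kcnab2, a Kv beta subunit, had an RPKM of 1.03 in WT and 0.401 in Kai1-/-. Kcnn1, a small-conductance calcium-activated pore, had 0.743 and 0.296. Kcnk2, the stretch-sensitive K2P pore TREK-1, had 0.709 and 0.29. The higher members were Kcnj8, Kcnip3 and Cacng8, and for Cacng8 the interval of the ratio, 0.708 to 17.3, spanned 1. Kcnk5, another K2P pore, had an RPKM of 0.331 and 0.71, 2.15-fold higher in Kai1-/- (1.37 to 3.42) without the 0.1 added and less than 2-fold with it. Kcnf1, a silent Kv subunit, had 0.743 and 0.807, and Kcnab3 had 0.795 and 0.833, with intervals that spanned 1.

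A further 44 members had a mean RPKM above 0 and below 0.3. Of these, 24 (54.5%) were above 0 in WT and listed at 0 in Kai1-/- PCs, against a background of 43.8% of 3162 genes at this level. The reverse held for 2 (4.55%), Kcne1 and Kcnj1, against a background of 8%. The larger number of zeros in the Kai1-/- library was thus shared by genes of low level at large, of which 6902 were listed at 0 in Kai1-/- and 5690 in WT. Among the 24 were Cacna1h, with about 65 reads in WT, and Kcnt2, with about 37. Kcnj13 shares 49.1% of its exon bases with Gigyf2 on the opposite strand, which had an RPKM of 6.32 and 6, so its value of 0.118 in WT is uncertain. Kcne4, an auxiliary subunit that dampens Kv currents, had an RPKM of 0.463 in WT and 0.0827 in Kai1-/- PCs and was 5.59-fold lower (2.16 to 18.5). Kcnh2, the pore of the cardiac channel hERG, had 0.369 and 0.0837, 4.41-fold lower (2.13 to 10.3). Kcna4, the Kv1 pore named above, went the other way, with 0.0509 and 0.242, about 7 and 30 reads. It was 4.75-fold higher in Kai1-/- (2.04 to 12.8). Kcne4, Kcnh2, Kcna4 and the members named in this and the preceding paragraph outside the naming rule were chosen after their values were seen.

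With neighbours set at no more than 200 kb apart, 28 members fell into 12 clusters along the chromosomes. A mean RPKM of 1 was reached by 1 member in 2 of these clusters and by no member in the others. In the cluster of Cacna1c and Cacna2d4 on chromosome 6, Cacna1c stood at 0.769 and 1.44 and Cacna2d4 at 0.012 and 0.

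Genes that work with these channels but carry other names were taken from a list of partners, of which 73 were listed in the tables and 31 had a mean RPKM of 1 or more. Of the 31, 2 were more than 2-fold lower and 1 was more than 2-fold higher in Kai1-/- PCs, beside the 7.81% and 7.98% of all genes, and their median log2 ratio was -0.33. Rem1, a small GTPase that binds calcium channel beta subunits and lowers calcium current, had an RPKM of 3.81 in WT and 0.107 in Kai1-/- PCs, about 164 and 4 reads. Rcan2, an inhibitor of the calcium-activated phosphatase calcineurin, had 13.4 and 1.14, about 1253 and 96 reads. Ano1, the calcium-activated chloride channel of smooth muscle, had 0.538 and 3.3, about 69 and 384 reads, 6.13-fold higher in Kai1-/-. The 5 genes of store-operated calcium entry all had a mean RPKM of 1 or more and a summed RPKM of 48.2 in WT and 30.8 in Kai1-/-, and none passed 2-fold. The 4 BK gamma subunits were listed at 0 in both libraries.

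**Figure D4:**
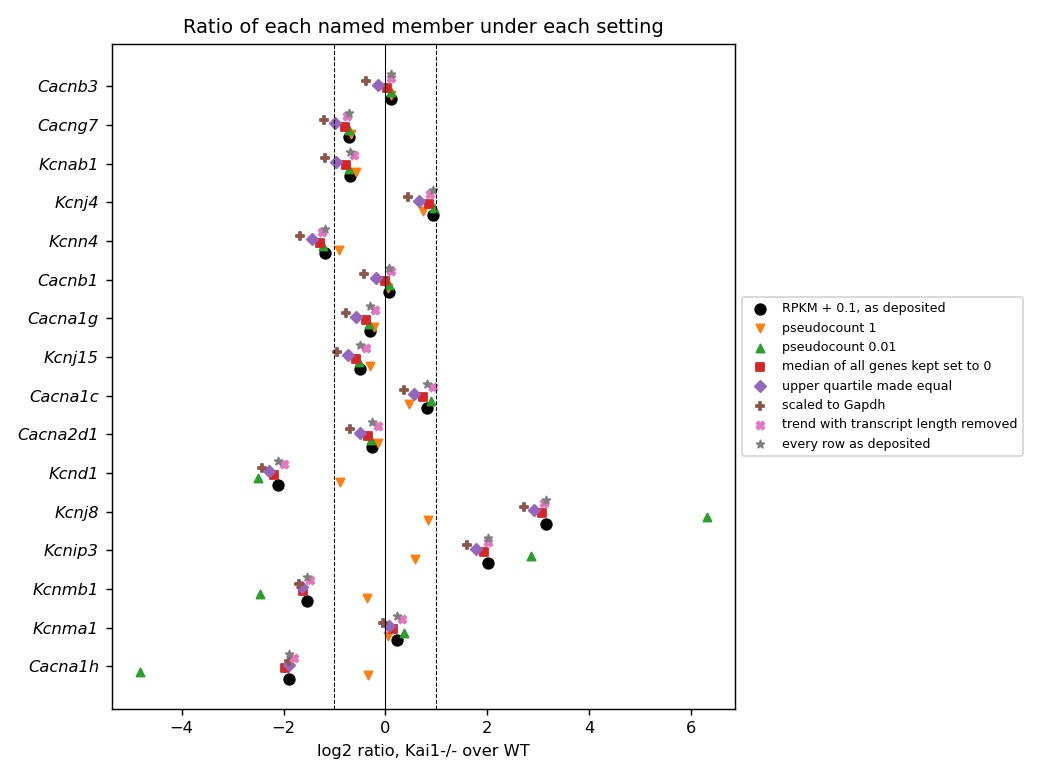
Log2 ratio of Kai1-/- over WT (x axis) of 16 named members under each setting, with black circles for the values reported, other symbols for the alternatives and dashed lines at a 2-fold difference. The pseudocount of 1 RPKM brings Kcnn4 (-0.92), Kcnd1 (-0.89), Kcnip3 (0.58), Kcnj8 (0.84), Kcnmb1 (-0.36) and Cacna1h (-0.35) inside the dashed lines, and scaling to Gapdh brings Cacng7 (-1.21) and Kcnab1 (-1.18) outside them.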

How the data were processed

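The authors aligned the reads to mm9 (NCBI37) with TopHat 2.0.9 and Bowtie and deposited 1 RPKM value per RefSeq gene and library, in reads per kilobase of transcript scaled to the number of mapped reads. Each table held 20462 rows, and 38 of them named no gene and were dropped, while values of repeated symbols were averaged. Members and lists were chosen with earlier results of these data known. Comparisons used genes averaging 1 RPKM or more, and no p-value was computed with 1 library per genotype. Named were members at that level, those with a mean of 0.1 to 1 and a log2 ratio beyond 2 in size, and a list of vessel wall channels. Of the members, 3 are not reported here by name. Of the partner list, Abcc9 and those past 2-fold at that level were named. Depth was estimated from single-transcript genes longer than 800 bases, as the number of reads that put low values on whole steps after taking 200 bases off the length, and 78.6% of 548 low WT values and 77.2% of 372 low Kai1-/- values then fell on whole reads with a tolerance of 0.15. The read numbers given use the longest GENCODE M1 transcript and are approximate. Intervals are exact 95% binomial (Clopper-Pearson) for ratios and exact Poisson for levels. The computations, tested on simulated data, used Python 3.11.15 with scipy 1.17.1 (intervals), statsmodels 0.14.6 (length trend), pandas 2.3.3, numpy 2.4.6 and matplotlib 3.10.9.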

Additional observations from a re-analysis of the deposited data

How the results depend on the processing

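The number of members more than 2-fold lower in Kai1-/- was 1 with the values as reported, 0 with a pseudocount of 1 RPKM, 3 when scaled to Gapdh, 17 without a filter on mean RPKM, 6 with a mean RPKM of 0.3 or more, 5 in the band from 0.3 to 1 (added after the data were seen) and 0 with a mean RPKM of 5 or more. The share of all genes more than 2-fold lower was 7.81% as reported, 5.68% with that pseudocount and 18.4% when scaled to Gapdh. It was 9.29% without a filter, 10.3% at 0.3 or more, 26.6% in the band and 5.37% at 5 or more. The number of members more than 2-fold higher was 0 as reported (7.98% of all genes) and 4 without the filter (5.96%). It was 3 with a mean RPKM of 0.3 or more (8.47%) and 3 in the band (11.7%). The shares without a filter and at 0.3 or more are not matched to the members in level. The filters change how many members are counted, from 118 without one to 2 at a mean RPKM of 5 or more. Scaled to Gapdh, the median log2 ratio of the members was -0.78, and with the trend on transcript length removed it was -0.20. Of 112 recomputed ratios of 16 named members, 89 moved by less than the counting interval and 23 moved further. The 89 include the 16 ratios with repeated symbols kept as separate rows, a setting that changed none of these members. For Kcnj8 and Cacna1h, listed at 0 in 1 library, an approximate limit from the reads of the other library took the place of the interval. Of the 112, 8 crossed the 2-fold line and 5, all near 0, changed sign (Cacnb3 and Cacnb1 under 2 scalings each, Kcnma1 under 1). Members with few reads, such as Kcnmb1 with about 6 in Kai1-/-, are limited by depth. No paired analysis was possible because there was a single library of each genotype.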
